A study of Mus musculus with 1528 samples.

Results

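Cathepsins are proteases that cut proteins inside lysosomes and other acidic compartments, and cystatin C, encoded by *Cst3*, is a secreted protein that blocks many of them. *Ctsb*, *Ctsl*, *Ctss*, *Ctsh*, *Ctsc*, *Ctsk* and *Ctsz* encode cysteine cathepsins, *Ctsd* encodes an aspartic protease and *Ctsa* a serine carboxypeptidase that also protects other lysosomal enzymes. In macrophages these enzymes degrade engulfed material, and in antigen-presenting cells some of them trim the invariant chain and peptides for class II molecules. The rows of these 10 genes, out of 55421 genes in the table, were taken by gene symbol.

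The cells were BMDMs (macrophages grown from bone marrow) from 2 wild-type mice (C57BL/6 in the labels, C57BL/6J in the study's methods), cultured with CSF1, a growth factor that drives marrow cells to become macrophages. They were stimulated over 24 h by the pair IL4+IL13, the control group (without TNF below), or by the 3 cytokines IL4+IL13+TNF (with TNF below), at 10 ng/ml of each, so that the control cells also received IL4 and IL13 and no unstimulated cells were analysed here. Single cells were sorted into 4 plates, plates 2 and 3 holding cells of mouse 1 and plates 4 and 5 cells of mouse 2, and Smart-seq2 libraries (full-length cDNA from single cells, with PCR copies counted) were sequenced. IL4+IL13 cells lay in rows A to H and IL4+IL13+TNF cells in rows I to P of every plate, so treatment and plate rows cannot be told apart.

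Of 1524 wells of known mouse and treatment, 1386 were kept, in mouse 1 357 without and 347 with TNF, in mouse 2 333 without and 349 with TNF. The median number of counted fragments per cell was 477871 without TNF and 464673 with it. The macrophage markers *Adgre1*, *Csf1r*, *Cd68*, *Itgam*, *Mertk*, *Fcgr1* and *Lyz2* were all found, with a summed level (in CPM, the counts of a gene scaled to the same total of fragments on genes) of 15161 to 27001 CPM over the 4 sums of mouse and treatment. The summed markers of fibroblasts reached at most 1.58 CPM, those of lymphocytes 0.160, of neutrophils 5.36, of mast cells 10.5 and of osteoclasts 43.2. The 5 dendritic cell markers stood at 9.20 and 12.3 CPM without TNF and at 29.1 and 205 CPM with TNF, and 11 cells that carried much of this signal are described beside *Cst3*.

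The genes lie on 6 chromosomes of mm10. *Cst3* (ENSMUSG00000027447), *Ctsa* (ENSMUSG00000017760) and *Ctsz* (ENSMUSG00000016256) lie on chromosome 2, at 148871722 to 148875692, 164832873 to 164841032 and 174427493 to 174439039. *Ctsk* (ENSMUSG00000028111, 95499256 to 95509362) and *Ctss* (ENSMUSG00000038642, 95526786 to 95556403) are neighbours on chromosome 3. *Ctsc* (ENSMUSG00000030560, 88278085 to 88310888) and *Ctsd* (ENSMUSG00000007891, 142375911 to 142388038) lie on chromosome 7, *Ctsh* (ENSMUSG00000032359, 90054152 to 90076089) on chromosome 9, *Ctsl* (ENSMUSG00000021477, 64359337 to 64370890) on chromosome 13 and *Ctsb* (ENSMUSG00000021939, 63122462 to 63145923) on chromosome 14. Strand was not used in counting. *Ctsa* overlaps *Pltp* (319 CPM on average over the kept cells) and *Neurl2*, *Ctsb* overlaps *Fdft1* and *Ctsz* overlaps *Nelfcd*, all on the opposite strand. *Ctss* overlaps *Hmgb1-ps5* on its own strand. Fragments from these overlapping parts cannot be told apart.

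TFEB, MITF, TFE3 and TFEC are transcription factors known to bind E-box sites in the promoters of lysosomal genes. The 250 bases before the transcription start were searched in RefSeq promoters for the core of that site, CACGTG, which reads the same on both strands. RefSeq promoters of build GRCm38.p6 matched 8 of the 10 genes, with 9 windows. The core was present in 3 of these 9 windows and in 6.02% of all 32851 windows. The matches are shown because this core is the known motif of lysosomal genes, and the capitals mark it.
*Ctsd*, chr7:142387908-142387937, minus strand, 98 bases before the start: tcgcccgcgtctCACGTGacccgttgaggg
*Ctsd*, chr7:142388048-142388077, minus strand, 245 bases before the start: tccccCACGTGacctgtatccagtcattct
*Ctsl*, chr13:64370739-64370768, minus strand, 236 bases before the start: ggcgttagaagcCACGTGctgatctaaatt
*Ctsa*, chr2:164833749-164833772, plus strand, 12 bases before the second of 2 annotated starts: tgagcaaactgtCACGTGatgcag
The matches at chr7:142387908-142387937, in *Ctsl* and in *Ctsa* lie within the span of their gene as annotated in Ensembl, and the other *Ctsd* match lies outside it. A match describes these letters and not binding. STAT6-type sites (present in 5.85% of all windows) and AP-1-type sites (TGANTCA, in 6.75%) were searched on both strands and matched in 0 of the 9 windows.

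Several of the 10 genes were among the most abundant transcripts of these cells. The 9 cathepsins took 3.16% and 3.04% of all fragments without TNF and 3.36% and 3.10% with TNF in mouse 1 and mouse 2. *Ctsb* ranked 5th and *Ctss* 7th of 55421 genes by CPM, *Ctsd* ranked 18th, *Ctsz* 19th, *Cst3* 31st, *Ctsl* 37th and *Ctsa* 83rd. *Ctsc* (rank 542), *Ctsh* (867) and *Ctsk* (3335) were lower. Longer transcripts give more fragments, so genes were compared with one another per kilobase of exon. That length covers all annotated exons of a gene (1358 bases for *Ctss*, 6051 for *Ctsb*). The length of the transcripts expressed here was not measured, and the order of genes on the per-kilobase scale depends on it.

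On that scale *Ctss*, the protease known for cutting the invariant chain, had the highest level, 6302 CPM per kb on average, with 5627 to 6978 over the 4 sums, and it did not overlap with any other member. *Ctsz*, a carboxypeptidase, followed with 2420 (1647 to 3201), *Ctsb* with 1996 (1839 to 2127), *Cst3* with 1825 (1477 to 2138) and *Ctsd* with 1673 (1543 to 1740), and each of these neighbours overlapped with the next. *Ctsl* had 326 CPM per kb (244 to 385) and *Ctsa* 211 (169 to 251), which overlapped at their edges. *Ctsc*, a dipeptidyl peptidase that activates granule proteases in other blood cells, had 45.3 CPM per kb (34.8 to 54.2), *Ctsh*, an aminopeptidase, 40.3 (28.4 to 52.8) and *Ctsk*, the collagenase of osteoclasts, 36.4 (34.0 to 41.9). These last 3 overlapped and were not separated by the spread between sums.

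**Figure D1:**
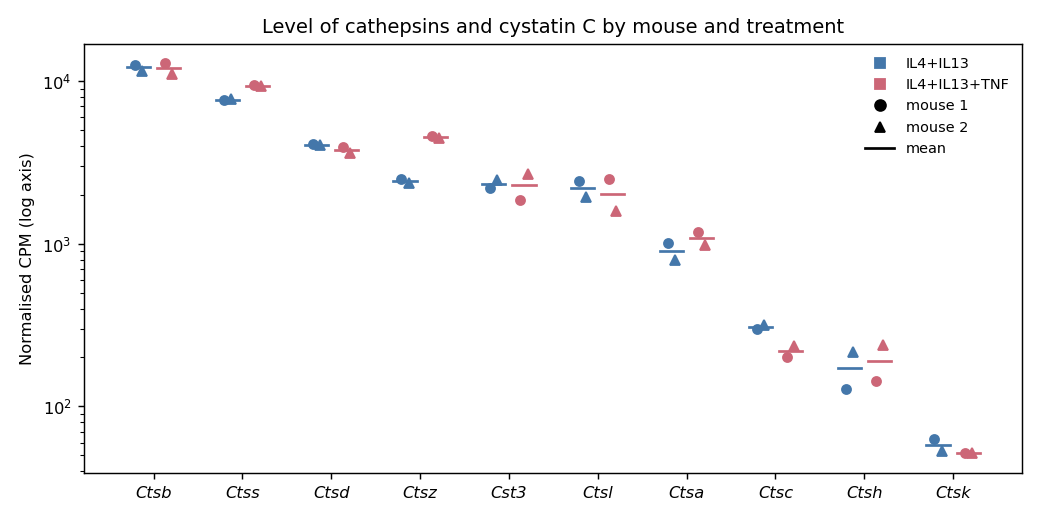
Normalised CPM (log axis) of each gene in the 4 sums of cells, with circles for mouse 1, triangles for mouse 2, blue for IL4+IL13, red for IL4+IL13+TNF and a line for the mean of the 2 mice. *Ctsz* with TNF (4613 and 4469) lies above *Ctsz* without TNF (2496 and 2374), while most other genes differ little between treatments.

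Between the mice, *Ctsh* was 1.69 times as high in mouse 2 as in mouse 1 without TNF and 1.65 times as high with TNF. *Ctsl* was lower in mouse 2, at 0.802 and 0.633 times the level of mouse 1, and *Cst3* was 1.12 and 1.45 times as high in mouse 2. With 1 animal on each side, these ratios have no replicate check. Each mouse also had its own plates, and the paper reports that the cells came from independent experiments. Mouse, plate and experiment therefore cannot be told apart in these ratios.

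To determine which of these genes differed when TNF was added to IL4+IL13, fragments of all cells sharing a mouse and a treatment were added up and the sums of 17034 genes were tested in edgeR by its quasi-likelihood method. *Ctsz* had the largest difference of the 10 genes. It was at 2496 and 2374 normalised CPM without TNF and at 4613 and 4469 with TNF in mouse 1 and mouse 2, and the treatments did not overlap. Its log2 fold change was 0.90 (standard error 0.12), with a fold of 1.85 in mouse 1 and 1.88 in mouse 2. It did not pass the threshold of 0.05 in the fit with treatment alone (Benjamini-Hochberg adjusted p = 0.180, edgeR). It passed with the mouse as a block, the fit that uses the pairing of treatments within a mouse (adjusted p = 0.00771, edgeR), and in DESeq2 without the block (adjusted p = 0.00294).

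Of the 10 members, 0 passed in the fit with treatment alone, against 1 of all genes (*Clec4e*, a C-type lectin receptor gene, 0.00587% of the genes tested). An unadjusted p under 0.05 was found for 3 members (*Ctsz*, *Ctsc* and *Ctss*) and for 1380 of all 17034 genes tested. With the mouse as a block 1 member passed, *Ctsz*, against 3.82% of all genes, and in DESeq2 also 1, against 3.89%. *Ctsz* was higher on each of the 4 plates, with log2 differences of 0.83, 0.95, 0.91 and 0.91 on plates 2, 3, 4 and 5. Over the rows of the plates, the median cell had 2136 to 2474 CPM in the 8 rows without TNF and 3978 to 4532 CPM in the 8 rows with TNF. *Ctsz* was found in every kept cell, and its median cell went from 2350 to 4341 CPM in mouse 1 and from 2252 to 4146 CPM in mouse 2.

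**Figure D2:**
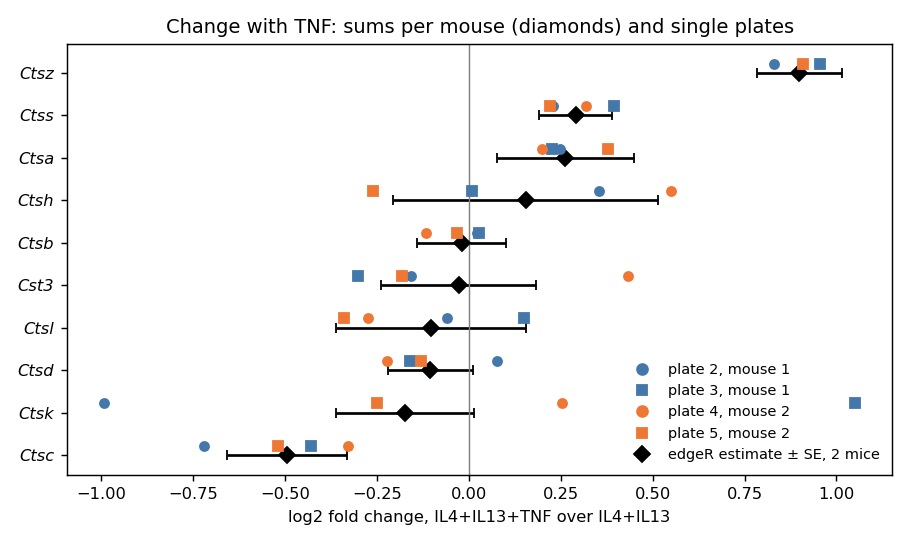
Log2 fold change of each gene with TNF (x axis), as the edgeR estimate over 2 mice with its standard error (diamonds and bars) and as the value on each plate (blue, mouse 1; orange, mouse 2). The 4 plates of *Ctsz* lie between 0.83 and 0.95, all plates of *Ctss* and *Ctsa* lie above 0 and all plates of *Ctsc* below 0, and *Ctsk* spreads from −0.99 to 1.05.

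*Ctss* was at 7641 and 7757 normalised CPM without TNF and at 9476 and 9360 with TNF. The sums of the 2 treatments did not overlap. The log2 fold change was 0.29 (standard error 0.099; adjusted p = 0.543 from edgeR, and 0.0528 with the mouse as a block), and the 4 plates gave 0.22 to 0.39. *Ctsa* stood at 1009 and 798 without and at 1184 and 984 with TNF, and the treatments overlapped across mice, while each of the 4 plates was higher with TNF, by 0.20 to 0.38 on the log2 scale (adjusted p = 0.833, edgeR).

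*Ctsc* was the member with the lowest ratio. It was at 301 and 315 normalised CPM without TNF and at 202 and 235 with TNF, with no overlap. The log2 fold change was −0.49 (standard error 0.16; adjusted p = 0.519 from edgeR, and 0.0666 with the mouse as a block), and it was lower on 4 of 4 plates, by −0.72 to −0.33. Neither *Ctss* nor *Ctsc* passed the threshold in these fits.

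*Ctsb*, the cathepsin with the most fragments, had 12682 and 11636 normalised CPM without TNF and 12868 and 11126 with TNF. Its treatments overlapped, and its log2 fold change was −0.02 with a standard error of 0.12. *Ctsd* had 4091 and 4060 without and 3955 and 3627 with TNF, which did not overlap, and a log2 fold change of −0.10 (standard error 0.12). *Ctsl* had 2432 and 1950 without and 2500 and 1581 with TNF, and the overlapping sums gave −0.10 (standard error 0.26). The median cell of *Ctsl* was lower with TNF on 4 of 4 plates (ratios 0.755, 0.846, 0.851 and 0.788). Those of *Ctsb* (0.956 times in mouse 1 and 0.924 times in mouse 2) and of *Ctsd* (0.920 and 0.880 times) were lower on 4 of 4 plates too. These medians are plain CPM, and the sums of *Ctsb* without TMM scaling were also lower with TNF, by −0.11 on the log2 scale. *Ctsh* had 128 and 215 without and 144 and 238 with TNF, and here the 2 mice stood further apart than the 2 treatments (log2 fold change 0.16, standard error 0.36). The adjusted p of these 4 genes lay between 0.917 and 0.990 in edgeR. Scaled by the spike-ins, the sign of 3 of them turned, to 0.14 for *Ctsb*, 0.057 for *Ctsd* and 0.068 for *Ctsl*.

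Over all 10 members, 5 had sums that did not overlap between the treatments, 2 higher with TNF (*Ctss* and *Ctsz*) and 3 lower (*Ctsc*, *Ctsd* and *Ctsk*, with *Ctsd* turning under spike-in scaling). Of all genes tested 36.4% had such sums, 18.6% higher and 17.9% lower with TNF. The median log2 fold change of the members was −0.02, beside 0.00 over all genes. Scaling by the spike-ins in place of the TMM factors put the median of all genes at 0.15 and that of the members at 0.12.

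Of the 10 genes, 7 (*Ctsa*, *Ctsb*, *Ctsd*, *Ctsl*, *Ctss*, *Ctsz* and *Cst3*) had at least 1 fragment in each of the 1250 cells that could be thinned to 339000 fragments, a step that gives every cell the same depth. The other 3 were missing from some cells. *Ctsc* was found in 94.7% ± 1.06 of cells without TNF and 93.9% ± 4.45 with TNF (SD, n = 2 mice; 96.7% and 95.7% without thinning). *Ctsh* was found in 86.7% ± 8.81 and 92.9% ± 2.60 (89.3% and 92.7% without thinning). In mouse 1 the share with *Ctsh* was 80.4% without and 91.1% with TNF, and in mouse 2 it was 92.9% and 94.8%. With at least 5 fragments asked for, the share was 72.2% ± 3.22 without and 84.9% ± 1.96 with TNF (SD, n = 2 mice), higher with TNF in both mice.

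*Ctsk*, the rarest, was found in 33.8% ± 2.48 of cells without TNF and 47.7% ± 12.9 with TNF (SD, n = 2 mice; 39.2% and 50.2% without thinning). In mouse 1 the share was 35.5% (95% exact Clopper-Pearson interval 30.4 to 41.0) and 56.8% (51.0 to 62.4), and in mouse 2 it was 32.0% (26.9 to 37.6) and 38.6% (33.1 to 44.3). The intervals cover counting error only, and 2 mice against 2 cannot give an exact two-sided permutation p below 0.333. The summed level did not follow the share: *Ctsk* was at 63.4 and 53.3 normalised CPM without TNF and at 51.4 and 52.0 with TNF (log2 fold change −0.17, standard error 0.19, adjusted p = 0.917 in edgeR).

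Single cells carried much of the *Ctsk* signal: 11 of 1386 cells had over 1000 CPM, up to 4516. On plate 2, 6 of 181 IL4+IL13 cells held 63.6% of its fragments, and no cell of the IL4+IL13+TNF wells was over 1000 CPM. The plates gave log2 differences of −0.99, 1.05, 0.25 and −0.25. The 5 osteoclast markers summed to 26.3 and 43.2 CPM without TNF and to 37.7 and 28.6 CPM with TNF, and their part in the *Ctsk* signal was not tested.

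The spread between cells was measured as the coefficient of variation (CV) of CPM within each plate and treatment. It was lowest for *Ctsb*, at 0.308 to 0.377 over the 8 sets. Genes of at least 1000 CPM had a median CV of 0.414 (82 genes), and the members of that class lay on both sides of it: *Ctsz* had a mean CV of 0.393, *Ctss* 0.452, *Ctsd* 0.482, *Cst3* 0.850 and *Ctsl* 0.999. *Ctsl*, a cysteine cathepsin, had 179 to 641 CPM at its 10th percentile and 3045 to 5402 CPM at its 90th. Among genes of 100 to 1000 CPM (median CV 0.845, 1712 genes), *Ctsa* had 0.495, *Ctsc* 1.28 and *Ctsh* 1.36. *Ctsa*, ranked 83rd by CPM, lay at the upper edge of that class. The median of 0.414 of the class above is therefore the closer comparison for it. *Ctsk* had 3.77 where genes of 10 to 100 CPM had a median of 1.76. CPM does not remove the effect of PCR and capture. The 5 most abundant spike-ins, at 17.5 to 67.3 fragments per cell, had a mean CV of 0.698 to 1.36. That CV was taken on their share of a cell's spike-in fragments, at low counts, so it does not measure the technical spread of the members.

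With TNF the CV was lower on 4 of 4 plates for *Ctsz* (0.439 ± 0.042 without TNF and 0.348 ± 0.016 with TNF, SD, n = 2 mice), for *Ctss* (0.479 ± 0.0048 and 0.426 ± 0.0094), for *Ctsa* and for *Ctsd*. This rests on the filter on cells: with fixed limits on cells (1000 detected genes as the minimum, a mitochondrial share of 10% as the maximum) plate 2 was higher with TNF for *Ctsz* (0.463 and 0.636), *Ctss* (0.541 and 0.721) and *Ctsa* (0.503 and 2.09). Plate 4 was then higher for *Ctss* (0.511 and 0.571), *Ctsa* (0.636 and 0.712) and *Ctsd* (0.595 and 0.740). The mean CV over the 8 sets went from 0.393 to 0.666 for *Ctsz* and from 0.495 to 0.872 for *Ctsa*. With thinned cells *Ctsd* was higher on plate 4 (0.530 and 0.540). With the kept cells the CV was higher on 4 of 4 plates for *Ctsc* (1.22 ± 0.050 and 1.33 ± 0.080) and for *Cst3*, whose CV was 0.380 ± 0.039 without TNF and 1.32 ± 0.616 with TNF. For *Cst3* the plates differed. Plate 3, with no cell over 10000 CPM of *Cst3*, had 0.354 without and 0.449 with TNF. Plate 4 had 0.422 and 2.05, and there 7 of 173 cells with TNF held 41.9% of its fragments. The part of such cells in the CV was not tested. On plate 5 *Ctsc* was lower with TNF in thinned cells (1.28 and 1.27), and on plate 3 *Cst3* was lower with the fixed limits (1.00 and 0.473).

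*Cst3*, the inhibitor among these genes, differed between the sum of all cells and the median cell. Its sums were 2199 and 2465 normalised CPM without TNF and 1869 and 2707 with TNF, and the treatments overlapped (log2 fold change −0.03, standard error 0.21, adjusted p = 0.993 in edgeR, and a log2 fold change of 0.10 when scaled by the spike-ins). Its median cell had 2108 and 2404 CPM without TNF and 1583 and 1684 CPM with TNF, ratios of 0.751 and 0.700. These are plain CPM, while the TMM-scaled sums had ratios of 0.850 and 1.10, on a slightly different scale. The median was lower on 4 of 4 plates (ratios 0.714, 0.771, 0.717 and 0.647), and over the rows it was 2052 to 2367 CPM without and 1532 to 1720 CPM with TNF.

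**Figure D3:**
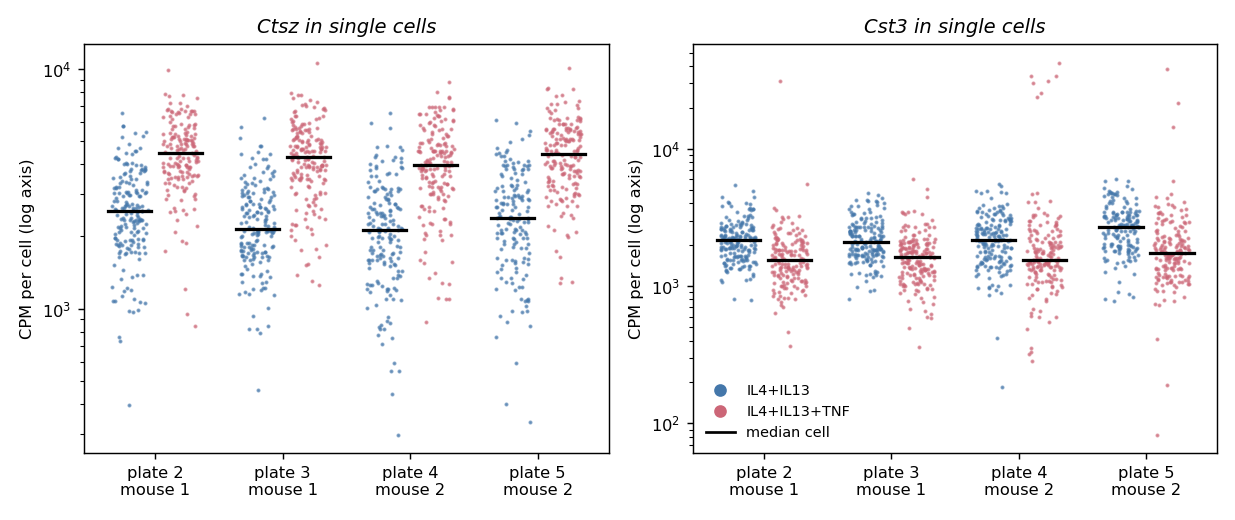
CPM of *Ctsz* (left) and *Cst3* (right) in each kept cell (log axis), by plate, with IL4+IL13 in blue, IL4+IL13+TNF in red and a black line for the median cell. *Ctsz* has a higher median with TNF on every plate, while *Cst3* has a lower median with TNF and 11 cells above 10000 CPM, all with TNF.

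Beside this stood 11 cells that had 14507 to 42536 CPM of *Cst3*, where no other cell exceeded 6026. All 11 were IL4+IL13+TNF cells, 1 on plate 2, 7 on plate 4 and 3 on plate 5, and 0 of 690 IL4+IL13 cells was among them, which allows a share of up to 0.435% by counting error only, with no account of the difference between mice. In mouse 2 these 10 of 349 cells held 31.6% of the *Cst3* fragments, and in mouse 1 the 1 cell of 347 held 6.63%. The cells were picked after their values were seen. The same 11 cells, and no others, had more fragments on the 5 dendritic cell markers than on the macrophage receptor genes *Adgre1* and *Csf1r* together, a rule that does not use *Cst3*.

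These 11 cells had a median of 5551 CPM of *Ccr7*, the lymph node homing receptor of migrating dendritic cells, and 18.9 CPM of *Csf1r*, where the other 685 IL4+IL13+TNF cells had medians of 0 and 1134 CPM. Both genes are part of the marker rule above, so these values are no further evidence beside it. *Lyz2*, the macrophage lysozyme gene, stood at 323 against 19890 CPM and the class II gene *H2-Aa* at 11848 against 57.2 CPM. Of the other dendritic cell markers, *Zbtb46* was found in 4 of the 11 cells, *Dpp4* in 4, *Flt3* in 9 and *Cd209a* in 1. In the other IL4+IL13+TNF cells *Flt3* was found in 92.3%, *Ccr7* in 21.5% and *Zbtb46* in 9.49%. Of the 5 markers *Ccr7* was found in all 11 cells, and no cell type name is given to them.

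Their cathepsins differed from those of the other cells by gene. *Ctsb* had a median of 606 CPM in the 11 cells and 11442 CPM in the other IL4+IL13+TNF cells, *Ctsd* 34.8 and 3455, *Ctsl* 17.8 and 1391, *Ctsa* 184 and 995 and *Ctsc* 7.43 and 138. *Ctss* was closer, at 5980 and 8547, and *Ctsz* at 2805 and 4282. *Ctsh* went the other way, at 1466 and 117 CPM. *Ctsk* was found in 1 of the 11 cells. These are values of chosen cells, given with no test.

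**Figure D4:**
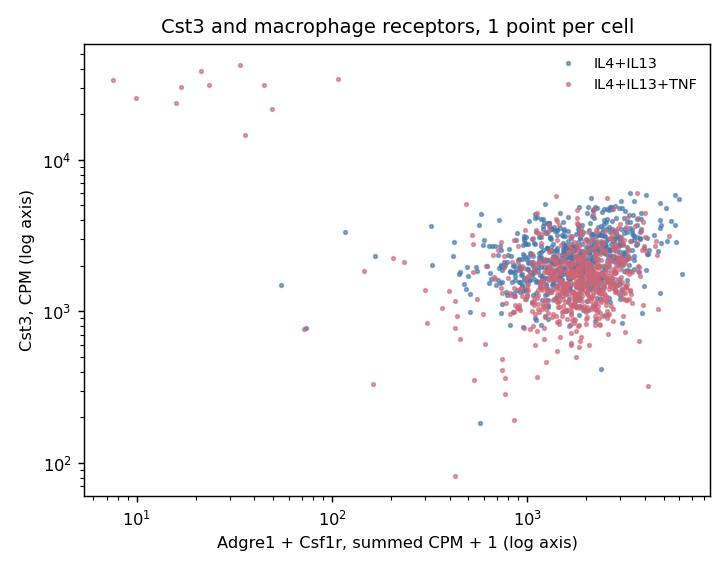
CPM of *Cst3* against the summed CPM of *Adgre1* and *Csf1r* with 1 added (both axes log), 1 point per kept cell, IL4+IL13 in blue and IL4+IL13+TNF in red. The 11 cells with over 10000 CPM of *Cst3* stand at the upper left, apart from the main cloud, and all are IL4+IL13+TNF cells.

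With these 11 cells left out, an alternative added after seeing the data, the log2 fold change of *Cst3* was −0.35 (adjusted p = 0.613 in edgeR, and 0.0602 with the mouse as a block). These cells were the highest in *Cst3* and all had TNF, so leaving them out could only lower *Cst3* with TNF. Its p-values there are no support for a fall. The log2 fold change of *Ctsh* was −0.04 in place of 0.16. In that fit with the block 2 members passed, *Ctsz* (0.91, adjusted p = 0.00552) and *Ctss* (0.30, adjusted p = 0.0467), against 4.75% of all genes. The mean over cells of log2(CPM + 1), also added after seeing the data, weighs each cell alike. By limma with the mouse as a block, *Cst3* fell on that scale by 0.42 (adjusted p = 0.00521), and 6 of the 10 members passed, where 16.3% of all genes did. *Ctsz* (0.87), *Ctss* (0.25), *Ctsh* (0.56) and *Ctsk* (0.62, against −0.17 in the sums) rose on that scale and *Ctsc* (−0.54) fell. Without the block 0 members passed by limma on this scale (smallest adjusted p among the members 0.197).

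Across cells the members did not vary as 1 group. Rank correlations (Spearman) were computed within each of the 8 sets of plate and treatment, with 160 to 183 cells each, and averaged. They are across cells that share plates, depth and the CPM total, and are given with no p. Of 45 pairs, 18 were positive in all 8 sets, and the median over pairs was 0.09. *Ctsb* and *Ctsd* had the highest value (0.58, from 0.53 to 0.65 over the sets), followed by *Ctss* with *Ctsz* (0.46), *Ctsb* with *Ctss* (0.41), *Ctsd* with *Ctsl* (0.41) and *Ctsa* with *Ctsb* (0.40). *Ctsc* went against several of them: it had −0.28 with *Ctsl* (−0.44 to −0.13), −0.19 with *Ctss* and −0.18 with *Ctsd*, each negative in 8 of 8 sets.

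The members also lined up with different states of these macrophages. *Ctsd* (0.35), *Ctsl* (0.33), *Ctsb* (0.21) and *Ctsk* (0.21) were positive in all 8 sets with the list of *Gpnmb*, *Fabp4*, *Fabp5* and *Lpl*. *Ctsz* (0.35), *Ctsh* (0.34), *Ctss* (0.24) and *Ctsc* (0.17) were positive in all 8 sets with the class II list. *Ctsl* (−0.36), *Ctsd* (−0.29) and *Ctsb* (−0.11) were negative with it in all 8. *Ctsc* was the member closest to the M2 list of *Clec10a*, *Mgl2*, *Retnla* and *Mrc1*, at 0.33. *Ctss* (−0.29), *Ctsd* (−0.25), *Ctsz* (−0.18), *Ctsa* (−0.15) and *Ctsl* (−0.14) were negative with the M2 list in all 8 sets. *Ctss* (−0.32), *Ctsb* (−0.27), *Ctsd* (−0.22), *Ctsh* (−0.20), *Ctsz* (−0.18) and *Cst3* (−0.11) were negative with cycling genes in all 8 sets. *Ctsc* went the other way and was positive with cycling genes in all 8 sets (0.14, from 0.07 to 0.32). The members' correlation with the number of fragments of a cell lay between −0.01 and 0.12. With the number of detected genes *Ctss* had −0.18 and *Cst3* −0.15, negative in all 8 sets, and with the mitochondrial share *Ctsa* had −0.12, *Ctsb* −0.14, *Ctss* −0.13, *Ctsz* −0.13 and *Cst3* 0.10. Their part in the correlations between members was not tested.

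**Figure D5:**
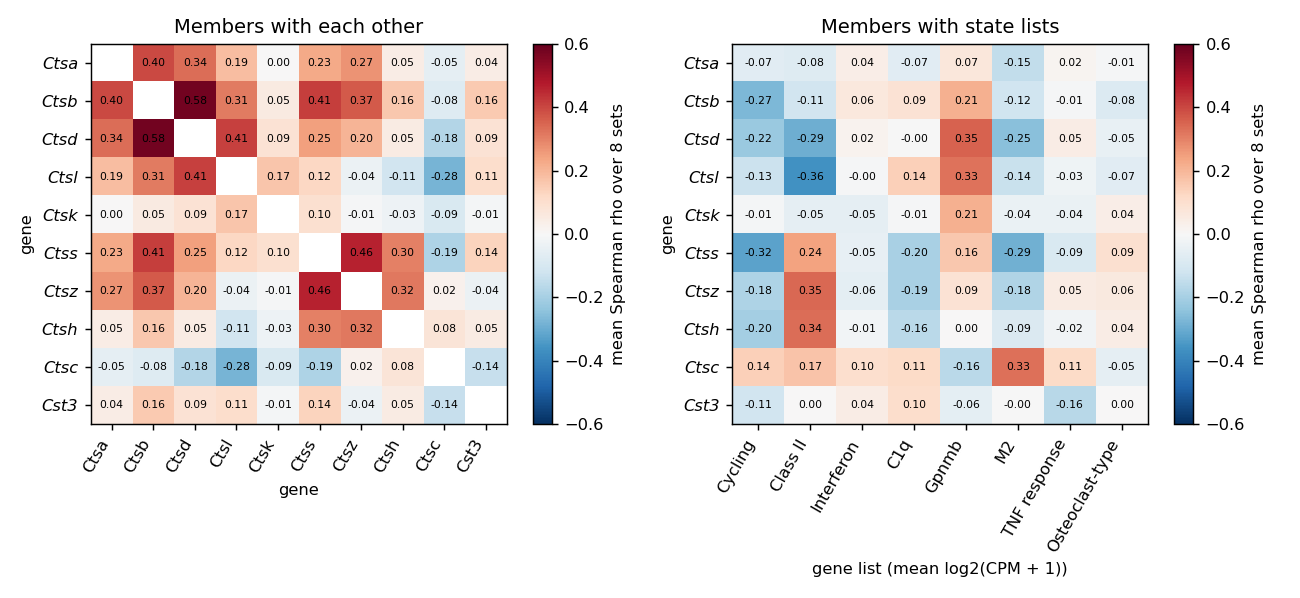
Mean Spearman rank correlation over the 8 sets of plate and treatment between the 10 genes (left) and between each gene and 8 lists of state genes (right), with red for positive and blue for negative values. *Ctsb* is positive with *Ctsd* (0.58) and with *Ctss* (0.41), *Ctsz* and *Ctsh* are positive with class II (0.35 and 0.34), and *Ctsc* with the M2 list (0.33).

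Over 10652 genes found in at least 25% of cells, the 3 genes most alike to each member were named. *Ctsb* went with *Ctsd*, with the processed pseudogene *Gm14032* (0.52) and with *Pld3* (0.45), which encodes a lysosomal exonuclease. *Gm14032* (7.75 CPM, on chromosome 2 from 55292065 to 55293090) shared 6.29% of its words of 25 bases with *Ctsb* transcripts and 0 with those of *Ctsh*. It was also among the 3 of *Ctsa* (0.35), with *Ctsb* and *Ctsd*. The gene most alike to *Ctsh* was a processed pseudogene too, *Gm5398* (0.69; 2.44 CPM), which shared 6.98% of its words with *Ctsh* transcripts. Fragments may be split between such a copy and its gene, and both counts are uncertain to that extent. *Ctsz* (0.32) and *H2-DMa* (0.31), a class II peptide-loading gene, came next for *Ctsh*.

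*Ctsd* went with *Ctsb*, *Gpnmb* (0.49) and the ferritin gene *Fth1* (0.48), *Ctsl* with *Gpnmb* (0.42), *Ctsd* (0.41) and *Spp1* (0.39), and *Ctsk* with *Gpnmb* (0.20), *Cd36* (0.18) and *Fabp4* (0.17). *Ctss* went with *Anxa1* (0.56), the pseudogene *Cd63-ps* (0.49; 66.2% of its words of 25 bases shared with *Cd63*, so that both counts are uncertain) and *Cd63* (0.49), a tetraspanin of lysosomes, and *Ctsz* with *Cyba* (0.47), a subunit of the NADPH oxidase, *Psap* (0.47) and *Ctss* (0.46). *Ctsc* went with the lectin genes *Clec10a* (0.34) and *Mgl2* (0.29) and with *Serinc3* (0.28). *Cst3* went with *Itm2b* (0.35), *B2m* (0.31) and *Tyrobp* (0.29).

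Around the members stand the genes that sort, activate and assist lysosomal proteases. Of 104 genes in 8 lists, 102 were in the table and 86 were tested. In the fit with treatment alone 0 of them passed in edgeR. At an unadjusted p under 0.05 there were 23 of them, and 1380 of all 17034 genes tested. With the mouse as a block 14 passed (3.82% of all genes), and in DESeq2 8 (3.89%). The changes named below are those that passed with the block, since the fit with treatment alone called none of them. The log2 fold changes given for these lists over all kept cells are estimates of the fit with treatment alone. The median log2 fold change was −0.57 for the other cathepsins (3 genes tested) and 0.63 for the cystatins (2 genes tested). It was 0.04 for sorting and maturation, −0.19 for the membrane genes, 0.10 for the V-ATPase and 0.28 for the TFEB family, beside 0.00 over all genes.

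*Lgmn*, which encodes legumain, a protease that processes cathepsins to their mature chains, was at 1332 and 1032 normalised CPM without TNF and at 689 and 659 with TNF, with no overlap. Its log2 fold change was −0.81, and it passed as lower with the block (adjusted p = 0.0248 in edgeR) and in DESeq2 (adjusted p = 0.0379). In the same list of 9 sorting and maturation genes, *Sort1*, a sorting receptor for lysosomal enzymes, was at 26.2 and 41.4 without and at 10.2 and 15.7 with TNF and fell with the block (−1.38, adjusted p = 0.0171 in edgeR), and the other 7 did not pass.

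Of the cystatins, 2 of 10 were tested. *Cstb*, the inhibitor that acts inside cells, was at 2207 and 1711 without and at 2950 and 2523 with TNF, which did not overlap, and rose with the block (0.48, adjusted p = 0.0339 in edgeR; 0.543 in DESeq2). *Cst7* was at 39.9 and 27.9 without and at 52.5 and 63.9 with TNF (0.78, adjusted p = 0.118 with the block). Of 13 other cathepsins 3 were tested and 0 passed. *Ctso* stood at 80.0 and 77.6 without and at 78.4 and 74.2 with TNF. *Ctsf* (−0.57) and *Ctse* (−1.60) had low levels, at a mean of 8.29 and 2.21 CPM.

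The remaining lysosomal genes did not move as a group. Of 33 other hydrolases 2 rose and 2 fell with the block, and their median was −0.07. The acid phosphatase gene *Acp5* was at 5.17 and 5.24 without and at 16.9 and 14.5 with TNF (1.59, adjusted p = 0.0255 with the block in edgeR), and *Acp2* also rose, while *Sgsh*, a heparan sulfatase gene, fell (−1.25, adjusted p = 0.0314), as did *Arsb*. Of 11 membrane genes 1 fell, *Laptm5* (−0.68, adjusted p = 0.0197), and *Npc1*, a cholesterol exporter, had −0.40 (adjusted p = 0.112). Of 16 subunits of the proton pump (V-ATPase) 1 rose, *Atp6v0c* (0.68, adjusted p = 0.0279), and *Atp6v0d2* had 0.54 (adjusted p = 0.0784). Of the 4 TFEB family genes 0 passed, with *Tfec* at 0.50 and *Mitf* at 0.40.

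With the block the class II list had the most calls, while in DESeq2 the other hydrolases had 2 higher and 2 lower. Of the 8 class II genes 5 rose with the block (*Cd74*, *Ifi30*, *H2-Aa*, *H2-Ab1* and *H2-Eb1*; 1.94% of all genes rose), 2 in DESeq2 and 0 in the fit with treatment alone, and the median was 0.92. *H2-Aa* was at 243 and 442 normalised CPM without and at 680 and 1272 with TNF, which did not overlap (1.51, adjusted p = 0.00688 with the block in edgeR), and *H2-Eb1* had 1.54 (adjusted p = 0.00730). The dendritic cell markers moved with this list, as given above. Without the 11 cells *H2-Aa* had 1.24 (adjusted p = 0.00589 with the block) and *H2-Eb1* 1.24 (adjusted p = 0.0108).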

How the data were processed

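Fragment counts of single wells, deposited as 1 table of raw counts, were made by the authors from Smart-seq2 libraries: alignment with gsnap to mm10 and counting of unique fragments per Ensembl 98 gene with featureCounts 1.6.3, without strand. The submitters' processing notes also name Seurat 3 and bcl2fastq 2.19.1. There were no molecular identifiers, so counts include PCR copies. 8 columns matched no sample label and were not used, and 4 wells of unknown mouse, 3 of them with a column, entered no comparison.

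Wells over 3 scaled median absolute deviations below their plate's median of log fragments or log detected genes, or above it in mitochondrial or spike-in share, were left out, and doublets were not called. Counts were summed per mouse and treatment (162260282 to 179757666 fragments each) and tested with edgeR 4.0.16 (quasi-likelihood, TMM, treatment only) in R 4.3.3, over genes found in at least 5% of cells of either treatment, with Benjamini-Hochberg adjustment and a threshold of 0.05. Normalised CPM was divided by the TMM factor of its sum, and values of single cells were plain CPM. DESeq2 1.42.0, limma 3.58.1, other scalings and filters, omitted plates and sums, and a block for the mouse were alternatives. The mouse numbers come from the labels, and deviations of the same mouse under the 2 treatments correlated with r = 0.581 over 17034 genes. Both treatments of a mouse share its plates, so the block pairs samples by mouse and plates together. Each mouse is 1 animal, and p-values rest on 2 animals per treatment. Shares of cells were compared after thinning to 339000 fragments, leaving out 136 shallower cells (without TNF 25 in mouse 1 and 24 in mouse 2, with TNF 44 and 43).

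The 10 genes, the lists and the rule for named genes (all members, the 2 largest differences of each list at 10 CPM or more and every gene past the threshold, and the 3 genes most alike to each member) were chosen with earlier results of these data known. Genes past the threshold only with the block are named in addition, after their values were seen.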

Additional observations from a re-analysis of the deposited data

Results flagged for a closer look

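The 4 wells whose labels give IL-4/IL-13 but no mouse lie in row P, among the wells with TNF. They entered no comparison, and the 10 genes had signal in the 3 of them that had a column. The well of plate 3 held 6882 fragments of these genes (2.46% of its 279461), the well of plate 4 held 10178 (2.87% of 354874) and the well of plate 5 held 1784 (2.05% of 87198). They were flagged because they lie outside the comparisons and carry more than the 3 fragments that a count of 0 allows. *Ctsb* had 10599, 13151 and 6766 CPM in them, *Ctsz* 1385, 1510 and 2374 CPM and *Cst3* 1009, 1384 and 493 CPM.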

How the results depend on the processing

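Without the block the fit called 1 gene, and the number moved to 651 with the mouse as a replicate block, 598 in DESeq2, 12 with scaling by spike-ins, 0 by limma on the mean of log2(CPM + 1) per cell (1032 at an unadjusted p under 0.05), 2783 by that limma fit with the block, 808 with the block and without the 11 cells, 0 without the lower-numbered plate of each mouse (1714 unadjusted) and 2 without the higher-numbered one, and to 4 to 30 with 1 sum left out, where the lone sum of a treatment is taken to vary like the others. Of the members 0 passed without the block, 1 with it, 1 in DESeq2, 6 by limma with the block, 2 with the block and without the 11 cells, and 0 with any 1 sum left out. Of the pathway lists 0 passed without the block, 14 with it, 8 in DESeq2, 33 by limma with the block and 15 with the block and without the 11 cells. The 2 limma fits and those without the 11 cells were chosen after seeing the data.

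Scaling by spike-ins turned the log2 fold change of *Ctsb* to 0.14, *Ctsd* to 0.057, *Ctsl* to 0.068, *Cst3* to 0.10 and *Ctso* to 0.11. The mean of log2(CPM + 1) turned *Ctsk* to 0.62 and *Ctso* to 0.11, with and without the block. Without the 11 cells *Ctsb* was 0.0046 (0.0034 with the block) and *Ctsh* −0.043 (−0.027). Without the lower-numbered plates *Ctsh* was −0.18 and *Ctsk* 0.19, and without the higher-numbered ones *Cst3* was 0.17. With 1 sum left out *Ctsb* ranged from −0.13 to 0.082, *Ctsh* from −0.25 to 0.58, *Ctsl* from −0.47 to 0.19 and *Cst3* from −0.32 to 0.22. The cause of these turns was not tested, and none of the 6 members that turned passed the threshold in the fit with treatment alone. *Ctsz* lay between 0.81 and 1.05 in all 19 settings and passed in 4, with adjusted p up to 1.00. 136 cells were too shallow for the thinned shares.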
